A study of Mus musculus with 27 samples.

Results

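The 10 immediate early genes Fos, Fosb, Junb, Arc, Egr1, Egr2, Npas4, Nr4a1, Dusp1 and Ier2 were taken by name from a mouse hippocampus gene table of 51826 features. All 10 passed the filter on low counts, as did 19969 genes in total. The table came from RNA sequencing of 15 hippocampus libraries of ICR mice, an outbred stock, which crossed 2 operations with 2 treatments. The OVX Xmo group (n = 4) had ovariectomy and xanthohumol, a prenylated flavonoid of hops. The OVX saline group (n = 4) had ovariectomy and saline, the sham Xmo group (n = 4) had a sham operation and xanthohumol, and the sham saline group (n = 3) had a sham operation and saline. The labels give no age, dose or interval between the last handling and dissection, and they do not say whether a library is 1 animal. P-values therefore measure the spread between these samples, which may be technical.

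Immediate early genes are transcribed within minutes of a stimulus, from transcription factors that are already present in the cell, so their mRNA needs no new protein. In hippocampal neurons synaptic activity and calcium entry activate kinases of the MAPK, CaMK and PKA pathways, and these phosphorylate CREB and the partners of serum response factor (SRF). The mRNAs are short-lived and are widely read as a trace of recent neuronal activity, and they also respond to stress and handling. Fos, Fosb and Junb encode subunits of the AP-1 transcription factor, Egr1 and Egr2 encode zinc finger transcription factors, Npas4 encodes a neuronal bHLH-PAS factor, and Nr4a1 encodes an orphan nuclear receptor. Arc encodes a dendritic protein that regulates AMPA receptor uptake, Dusp1 encodes a phosphatase that switches off MAP kinases, and Ier2 encodes a small nuclear protein.

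In the gene table the members carried the identifiers ENSMUSG00000021250 (Fos), ENSMUSG00000003545 (Fosb), ENSMUSG00000052837 (Junb), ENSMUSG00000022602 (Arc), ENSMUSG00000038418 (Egr1), ENSMUSG00000037868 (Egr2), ENSMUSG00000045903 (Npas4), ENSMUSG00000023034 (Nr4a1), ENSMUSG00000024190 (Dusp1) and ENSMUSG00000053560 (Ier2). None of the 10 gene spans overlapped another annotated gene, so their counts were not shared with a neighbour on either strand. On GRCm38.p6 the gene spans were chr12:85473890-85477273 for Fos, chr7:19302696-19310051 for Fosb, chr8:84976910-84978718 for Junb and chr15:74669083-74672570 for Arc. They were chr10:67535475-67542188 for Egr2, chr19:4984355-4989971 for Npas4, chr15:101266846-101274792 for Nr4a1, chr17:26505590-26508519 for Dusp1 and chr8:84661331-84662852 for Ier2.

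The promoters are shown because most members varied together between libraries of the same group, as described further on. RefSeq promoter windows on GRCm38.p6, from 250 bases before to 50 bases after a gene's start, were found for 7 of the 10 members, without Arc, Egr1 and Ier2. Motifs were searched on both strands of the whole window. The letters TGACG, the core of the cAMP response element (CRE) to which CREB binds, occurred at the start listed first in 6 of the 7 (Fos, Fosb, Junb, Npas4, Nr4a1 and Dusp1) and in 20.8% of all 32851 windows. The full element TGACGTCA, which contains that core on both strands, occurred in Dusp1 alone of the 7 and in 1.79% of all windows. The 250 bases before the start of these 6 genes are printed 5′ to 3′ along the gene's strand, with each TGACG or its reverse complement CGTCA in capitals. The stretches are chr12:85473640-85473889 (plus strand) for Fos, chr7:19310046-19310295 (minus) for Fosb, chr8:84978749-84978998 (minus) for Junb, chr19:4989972-4990221 (minus) for Npas4, chr15:101266596-101266845 (plus) for Nr4a1 and chr17:26508473-26508722 (minus) for Dusp1. The RefSeq starts can differ from the starts of the gene spans above. The stretches of Fosb and Dusp1 reach into their spans, and that of Junb stops short of its span.
Fos: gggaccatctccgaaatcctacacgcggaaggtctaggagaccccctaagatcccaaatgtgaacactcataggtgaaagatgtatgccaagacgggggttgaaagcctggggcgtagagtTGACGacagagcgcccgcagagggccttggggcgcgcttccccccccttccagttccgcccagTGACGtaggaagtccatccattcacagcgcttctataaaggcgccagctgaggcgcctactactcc
Fosb: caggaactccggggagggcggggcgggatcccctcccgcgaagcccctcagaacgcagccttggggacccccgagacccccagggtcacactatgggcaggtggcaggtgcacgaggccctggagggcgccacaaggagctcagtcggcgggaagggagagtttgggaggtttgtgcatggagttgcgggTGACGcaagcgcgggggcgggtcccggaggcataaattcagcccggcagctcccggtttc
Junb: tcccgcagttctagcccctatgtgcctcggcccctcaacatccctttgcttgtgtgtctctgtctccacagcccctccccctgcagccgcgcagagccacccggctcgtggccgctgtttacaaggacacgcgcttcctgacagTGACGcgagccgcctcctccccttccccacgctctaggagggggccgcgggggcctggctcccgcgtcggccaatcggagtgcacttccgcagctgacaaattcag
Npas4: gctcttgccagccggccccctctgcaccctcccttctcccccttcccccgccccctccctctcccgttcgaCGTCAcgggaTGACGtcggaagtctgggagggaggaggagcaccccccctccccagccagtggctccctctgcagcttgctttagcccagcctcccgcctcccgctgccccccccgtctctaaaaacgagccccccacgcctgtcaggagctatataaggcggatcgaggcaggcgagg
Nr4a1: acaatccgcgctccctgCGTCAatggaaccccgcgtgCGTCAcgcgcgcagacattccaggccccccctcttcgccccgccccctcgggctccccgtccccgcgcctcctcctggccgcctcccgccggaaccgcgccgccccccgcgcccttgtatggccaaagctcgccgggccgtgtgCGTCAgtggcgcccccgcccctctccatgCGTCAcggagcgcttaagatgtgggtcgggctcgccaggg
Dusp1: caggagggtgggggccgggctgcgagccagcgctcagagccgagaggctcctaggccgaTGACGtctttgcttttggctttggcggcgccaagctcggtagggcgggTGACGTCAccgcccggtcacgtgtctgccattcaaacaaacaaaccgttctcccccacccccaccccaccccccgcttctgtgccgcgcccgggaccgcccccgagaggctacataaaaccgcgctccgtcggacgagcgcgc
The serum response element core, the CArG box, occurred in 1.63% of all windows and in none of the 7 members at the start listed first. Egr2 has 5 listed starts, of which the first held neither TGACG nor a CArG box. A CArG box lay in the windows of its other 4 starts, and 2 TGACG matches lay in each of the last 3. The TATA box letters TATAAA occurred in Fos and Junb (13.6% of all windows). The Fos match began at position -33 from the start, and the Junb match at position 1, after the printed stretch. The EGR motif GCGNGGGCG occurred in Fosb and Nr4a1 (5.55%), and the AP-1 motif TGANTCA in none of the 7 (7.81%). A match describes letters only, and no match says only that the letters are absent from the window.

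Library totals ran between 20848661 and 39140593 counts. Of the sham saline libraries, 2 of 3 stood apart in the share of counts taken by mitochondrially encoded protein genes. That share was 14.0% ± 1.75 in OVX Xmo, 14.2% ± 1.94 in OVX saline and 16.2% ± 2.08 in sham Xmo (SD, n = 4 each), against 25.8% ± 7.70 in sham saline (SD, n = 3). It was 34.1% in sham saline 2 and 24.2% in sham saline 3, while the 19.0% of sham saline 1 lay below the 19.2% of sham Xmo 1. Beside the hippocampus label, markers of its principal neurons and of neighbouring tissue were read. The summed level of 10 CA1 and CA3 pyramidal markers ran between 626 and 934 counts scaled to library size (CPM), and that of 10 dentate granule cell markers between 448 and 625 CPM, with no marker at 0 in all libraries. Marker transcripts of choroid plexus, a tissue that borders the hippocampus, summed to between 245 and 10856 CPM. Those of thalamus and habenula summed to between 116 and 874 CPM, and those of neocortical layers to between 174 and 376 CPM. These lists too had no marker at 0 in all libraries, so the presence of markers does not show that a dissection held hippocampus alone.

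Transcript level per length was read from the TPM values that the authors deposited. Mean TPM ± SD over the 15 libraries was 41.6 ± 13.5 for Arc, 36.4 ± 10.8 for Nr4a1, 29.1 ± 11.7 for Egr1, 12.2 ± 3.22 for Dusp1 and 11.8 ± 4.80 for Npas4. It was 5.21 ± 2.27 for Fos, 3.41 ± 0.860 for Ier2, 2.58 ± 0.948 for Fosb and 0.458 ± 0.253 for Egr2. Arc, Nr4a1 and Egr1 were thus the most abundant, and Egr2 was the least. Egr1 was above Dusp1, Npas4 above Fos and Fosb above Egr2 in 15 of 15 libraries. Arc was above Nr4a1, Nr4a1 above Egr1 and Fos above Ier2 in 12, Ier2 above Fosb in 10, and Dusp1 above Npas4 in 8, so that the last of these neighbours had no stable order. Junb could not be placed, because its deposited TPM was 0 in 10 of 15 libraries whose Junb counts ran between 329 and 1161. Its TPM was 32.9 in OVX Xmo 3 and at most 0.339 in the other libraries. Of 13153 genes with a mean count above 100, 3 had a TPM of 0 in 8 or more libraries. All further levels are counts scaled by library size and TMM (trimmed mean of M-values) factors, in CPM, which compare libraries but not genes.

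The AP-1 genes are given first. Fos stood at 3.86, 2.44, 6.30 and 5.59 CPM in OVX Xmo 1 to 4, and at 2.18, 3.5, 5.73 and 9.23 CPM in OVX saline 1 to 4. It stood at 3.45, 5.14, 4.30 and 4.68 CPM in sham Xmo 1 to 4, and at 4.37, 3.51 and 7.06 CPM in sham saline 1 to 3. The lowest and the highest Fos values of all 15 libraries were thus both in OVX saline. Fosb, whose product partners Jun proteins as Fos does, stood at 5.83, 2.22, 6.17 and 7.12 CPM in OVX Xmo, and at 3.13, 4.42, 3.61 and 6.79 CPM in OVX saline. Fosb levels were 2.85, 2.82, 3.98 and 5.17 CPM in sham Xmo, against 6.81, 4.80 and 10.8 CPM in sham saline. Sham saline 3 was the highest library for Fosb, and the other sham saline values lay within the range of OVX Xmo. Junb stood at 25.1, 16.0, 30.7 and 22.5 CPM in OVX Xmo, and at 16.5, 19.7, 25.7 and 29.2 CPM in OVX saline. For Junb the sham values were 18.4, 23.7, 22.5 and 28.7 CPM with Xmo, and 21.5, 15.8 and 31.2 CPM with saline. The Junb ranges of the 4 groups covered each other almost completely.

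Among the other transcription factors, Egr1 stood at 90.9, 40.9, 112 and 80.5 CPM in OVX Xmo, and at 38.9, 70.2, 60.2 and 71.5 CPM in OVX saline. Egr1 in sham Xmo was 48.5, 47.6, 49.7 and 79.8 CPM, against 99.2, 65.4 and 177 CPM in sham saline. Sham saline 3 was the highest Egr1 library of the 15, and sham saline 2 lay inside the ranges of the other 3 groups. Egr2 stood at 1.03, 0.393, 0.408 and 1.38 CPM in OVX Xmo, and at 0.776, 0.985, 0.195 and 1.3 CPM in OVX saline. Its sham values were 0.339, 0.536, 0.381 and 0.742 CPM with Xmo, and 0.873, 0.384 and 1.23 CPM with saline. These Egr2 levels rest on 6 to 38 counts per library, the fewest of the 10 members. Npas4, which controls inhibitory synapses on active neurons, stood at 23.8, 12, 35 and 20.9 CPM in OVX Xmo, and at 14.0, 18.6, 16.7 and 33.8 CPM in OVX saline. Npas4 was 18.4, 13.9, 21.6 and 26.5 CPM in sham Xmo, against 18.2, 18.4 and 35.7 CPM in sham saline. In 3 of the 4 groups a single library, at 33.8 CPM or above, held the highest Npas4 level. Nr4a1 stood at 60.1, 30.7, 54.5 and 48.5 CPM in OVX Xmo, and at 38.1, 47.9, 44.2 and 59.8 CPM in OVX saline. Nr4a1 levels were 44.0, 40.9, 54.6 and 70.4 CPM in sham Xmo, and 56.5, 34.7 and 71.4 CPM in sham saline. As for Junb, the 4 groups overlapped almost completely.

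Of the effector and feedback genes, Arc stood at 61.6, 38.7, 83.7 and 70.6 CPM in OVX Xmo, and at 46.6, 64.1, 78.9 and 91.5 CPM in OVX saline. Arc was 53.5, 58.7, 85.5 and 96.5 CPM in sham Xmo, against 78.2, 50.7 and 114 CPM in sham saline. The highest Arc library was again sham saline 3, and the lowest was OVX Xmo 2. Dusp1 stood at 10.2, 10.9, 16.7 and 15.3 CPM in OVX Xmo, and at 8.77, 8.97, 14.4 and 17.8 CPM in OVX saline. Its level was 11.5, 15.9, 11.8 and 13.9 CPM in sham Xmo, against 16.3, 19.8 and 17.8 CPM in sham saline, so the sham Xmo and sham saline libraries did not overlap. Ier2 stood at 2.32, 3.40, 3.36 and 2.98 CPM in OVX Xmo, and at 1.70, 2.07, 2.57 and 2.72 CPM in OVX saline. Ier2 in sham Xmo was 3.52, 3.12, 3.43 and 2.77 CPM, against 4.26, 2.74 and 3.37 CPM in sham saline. All 4 OVX saline libraries were below all 3 sham saline libraries in Ier2, by a gap of hundredths of a CPM between the nearest.

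**Figure D1:**
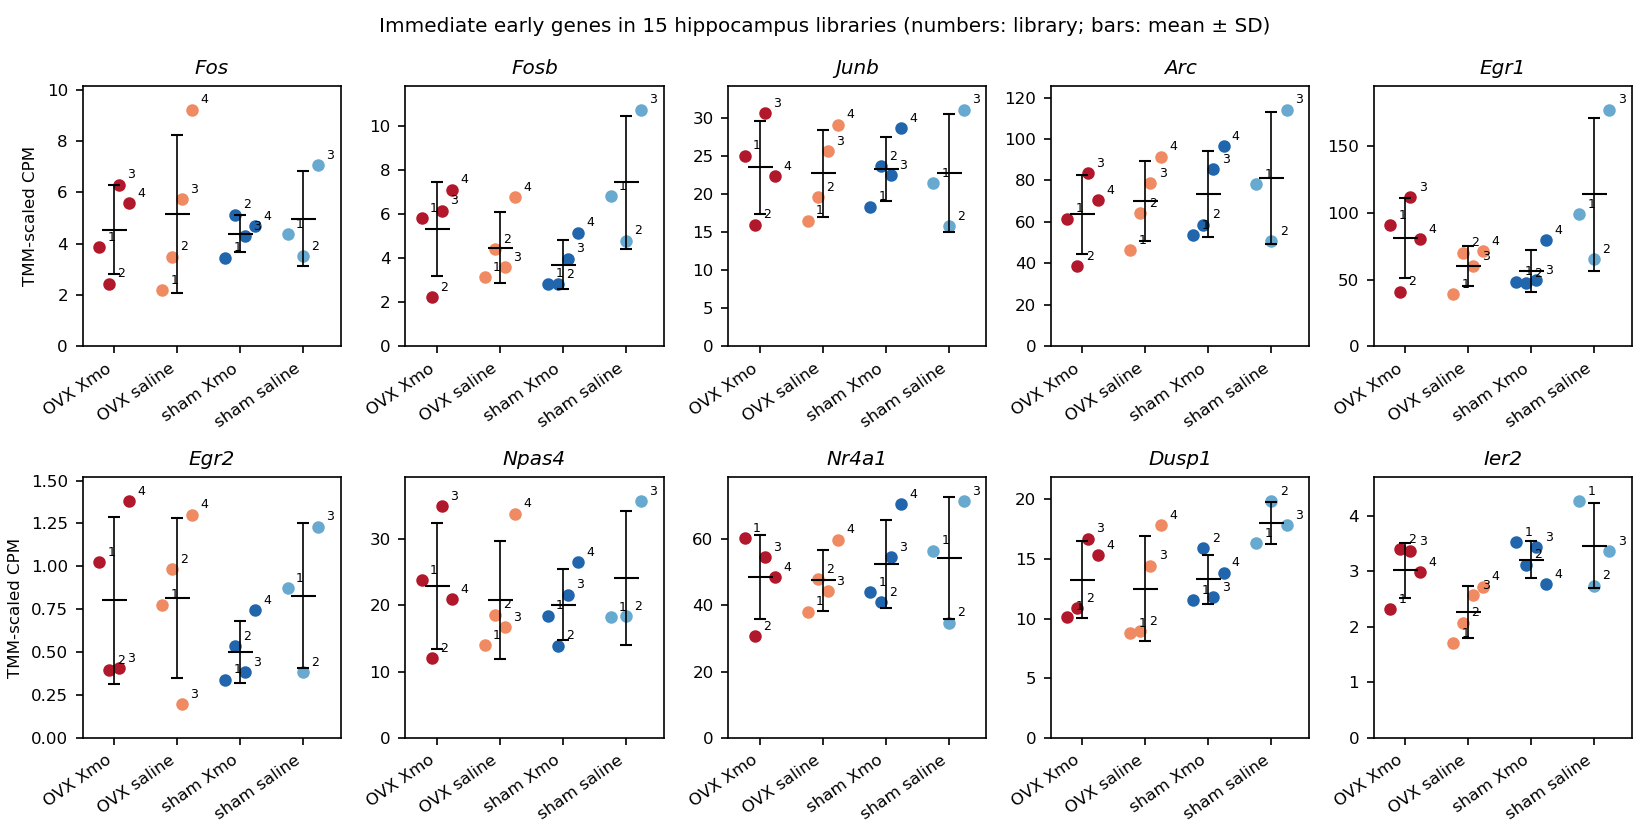
Level of each immediate early gene (vertical axis, TMM-scaled CPM from 0) in the OVX Xmo, OVX saline, sham Xmo and sham saline groups, with 1 numbered point per library and bars at the mean ± SD. The same libraries recur at the ends of the ranges, such as OVX saline 4 and sham saline 3 at the top and OVX Xmo 2 at the bottom.

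The group means differed by less than these ranges for most members. Sham saline had the highest group mean for 8 of the 10 genes, OVX Xmo for 1 (Junb) and OVX saline for 1 (Fos). The lowest group mean was in sham Xmo for 5 members, in OVX saline for 4 and in OVX Xmo for 1. Egr1 showed the widest separation, with 81.1 ± 29.8 CPM in OVX Xmo, 60.2 ± 15.1 CPM in OVX saline and 56.4 ± 15.6 CPM in sham Xmo (SD, n = 4 each), and 114 ± 57.5 CPM in sham saline (SD, n = 3). In bulk tissue a lower level in every cell and a smaller share of expressing cells cannot be told apart.

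Ovariectomy without treatment was read from OVX saline against sham saline. None of the 10 members passed edgeR's quasi-likelihood test at an adjusted p under 0.05, whereas 6.24% of all genes tested did. At an unadjusted p under 0.05 the count was 3 of 10 (Egr1, Dusp1 and Ier2), beside 24.7% of all genes. Egr1 averaged 60.2 ± 15.1 CPM in OVX saline and 114 ± 57.5 CPM in sham saline, a log2 fold change of -0.92 (SE 0.34, 95% interval -1.66 to -0.19, edgeR adjusted p = 0.112). Egr1 was the single member that passed with DESeq2 (log2 fold change -0.93, adjusted p = 0.0427), where 13.2% of all genes passed. Without sham saline 3 the Egr1 value was -0.45 (edgeR adjusted p = 0.467). Sham saline 2 and 3 are also the libraries with the high mitochondrial share. With the mitochondrial genes left out of the fit the Egr1 value was -0.92 (edgeR adjusted p = 0.112). That fit removes those genes only, so it does not test what else set these libraries apart. Ier2 averaged 2.27 ± 0.468 CPM in OVX saline and 3.46 ± 0.765 CPM in sham saline, with a log2 fold change of -0.62 (SE 0.21, edgeR adjusted p = 0.0869). Ier2 was the single member whose groups did not overlap, beside 24.5% of all genes. Fosb had -0.74 (SE 0.38, edgeR adjusted p = 0.241) and Dusp1 -0.53 (SE 0.24, edgeR adjusted p = 0.190), while the remaining 6 members lay between -0.22 and 0.04. The fitted log2 fold change was above 0 for 1 of 10 members, beside 50.5% of all genes, and the members' median was -0.21, beside 0.005 for all genes. The median was -0.24 for 8 pan-neuronal and -0.41 for 10 neocortical layer markers. It was 0.04 for 10 CA1 and CA3 pyramidal and 0.27 for 10 dentate granule cell markers. Pan-neuronal markers summed to 5710 to 6308 CPM in OVX saline and to 6457 to 8232 CPM in sham saline. The part of neuronal share in the members' values was not tested. Most members moved together between libraries, as described further on. Counts of signs, here and in the comparisons below, are therefore not 10 separate readings. The values of Fos, Junb, Arc, Egr2, Npas4 and Nr4a1 changed sign here when a library was left out.

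Treatment after ovariectomy was read from OVX Xmo against OVX saline. No member passed edgeR's test, and neither did any gene of the 19969 (0%). At an unadjusted p under 0.05 no member passed either, beside 4.18% of all genes, and DESeq2 called none of the 10, beside 0.015% of all genes. The libraries of the groups overlapped for every member, beside 3.11% of all genes without overlap. The highest member values were Egr1, with 81.1 ± 29.8 CPM in OVX Xmo and 60.2 ± 15.1 CPM in OVX saline (log2 fold change 0.43, 95% interval -0.25 to 1.11), and Ier2, with 3.01 ± 0.499 CPM in OVX Xmo and 2.27 ± 0.468 CPM in OVX saline (0.41, interval -0.0033 to 0.83). The lowest was Fos at -0.18 (interval -1.0 to 0.64). The intervals of Fos, Fosb, Egr1 and Egr2 reached a size of about 1 or more on the log2 scale, so differences of that size were not excluded for these genes. Of the 10 members 7 had a fitted value above 0, beside 50.9% of all genes, and the median was 0.07, beside 0.003 for all genes.

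The same treatment without ovariectomy was read from sham Xmo against sham saline. Again 0 of 10 members passed edgeR's test, beside 1.51% of all genes. Egr1 averaged 56.4 ± 15.6 CPM in sham Xmo and 114 ± 57.5 CPM in sham saline (log2 fold change -1.02, SE 0.34, edgeR adjusted p = 0.135). Fosb averaged 3.71 ± 1.12 CPM in sham Xmo and 7.46 ± 3.03 CPM in sham saline (-1.01, SE 0.38, edgeR adjusted p = 0.167). These were the 2 members at an unadjusted p under 0.05, beside 18.4% of all genes. DESeq2 called Egr1 here too (log2 fold change -1.03, adjusted p = 0.0353), beside 6.9% of all genes. Without sham saline 3 the values were -0.55 for Egr1 and -0.65 for Fosb (edgeR adjusted p = 0.498 and 0.501). Dusp1 was the single member without overlap between the groups, beside 14.2% of all genes, at 13.3 ± 2.05 CPM in sham Xmo and 18.0 ± 1.77 CPM in sham saline (-0.44, SE 0.24, edgeR adjusted p = 0.353). The fitted value was above 0 for 1 of 10 members, beside 53.4% of all genes, with a median of -0.22, beside 0.026 for all genes. Pan-neuronal markers had a median of -0.31, neocortical layer markers -0.34, CA1 and CA3 pyramidal markers -0.18 and dentate granule cell markers 0.18. The pan-neuronal sum was 5038 to 5867 CPM in sham Xmo and 6457 to 8232 CPM in sham saline.

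The interaction asks whether the Xmo difference in OVX mice departed from that in sham mice. No member passed edgeR's test, beside 0.416% of all genes. Egr1 had a log2 difference of 1.44 (SE 0.47, 95% interval 0.44 to 2.45, edgeR adjusted p = 0.142) and Fosb 1.26 (SE 0.52, interval 0.16 to 2.36, edgeR adjusted p = 0.227). Both were under an unadjusted p of 0.05, as were 17.4% of all genes. DESeq2 called Egr1 (1.46, adjusted p = 0.0334), beside 5.57% of all genes. Without sham saline 3 the Egr1 value was 0.97 and the Fosb value 0.90 (edgeR adjusted p = 0.349 and 0.468). The median over the 10 members was 0.46, beside -0.02 for all genes, and 8 of 10 were above 0, beside 47.7% of all genes. Pan-neuronal markers had a median of 0.44, neocortical layer markers 0.53, CA1 and CA3 pyramidal markers 0.35 and dentate granule cell markers -0.50. The 3 comparisons share the sham saline or OVX saline libraries, so these values are not independent of those above.

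Further comparisons complete the design. OVX Xmo against sham saline gave 0 of 10 members by edgeR, beside 1.19% of all genes, and 0 by DESeq2, beside 7.9%. At an unadjusted p under 0.05 the count was 0, beside 18.9% of all genes. Egr1 had -0.49 (SE 0.34) and Fosb -0.49 (SE 0.38), and the members' median was -0.18, beside 0.011 for all genes. The fitted value was above 0 for 1 of 10, beside 51.4% of all genes. OVX Xmo against sham Xmo gave 0 of 10 members by edgeR, beside 0.01% of all genes, and 0 by DESeq2, beside 0.381%. At an unadjusted p under 0.05 the count was 0, beside 10.2% of all genes. The highest values were Egr2 at 0.66 (SE 0.54), Egr1 at 0.52 (SE 0.32) and Fosb at 0.52 (SE 0.35). The fitted value was above 0 for 6 of 10, beside 47.2% of all genes. No member was without overlap in either comparison, beside 14.9% and 5.88% of all genes.

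**Figure D2:**
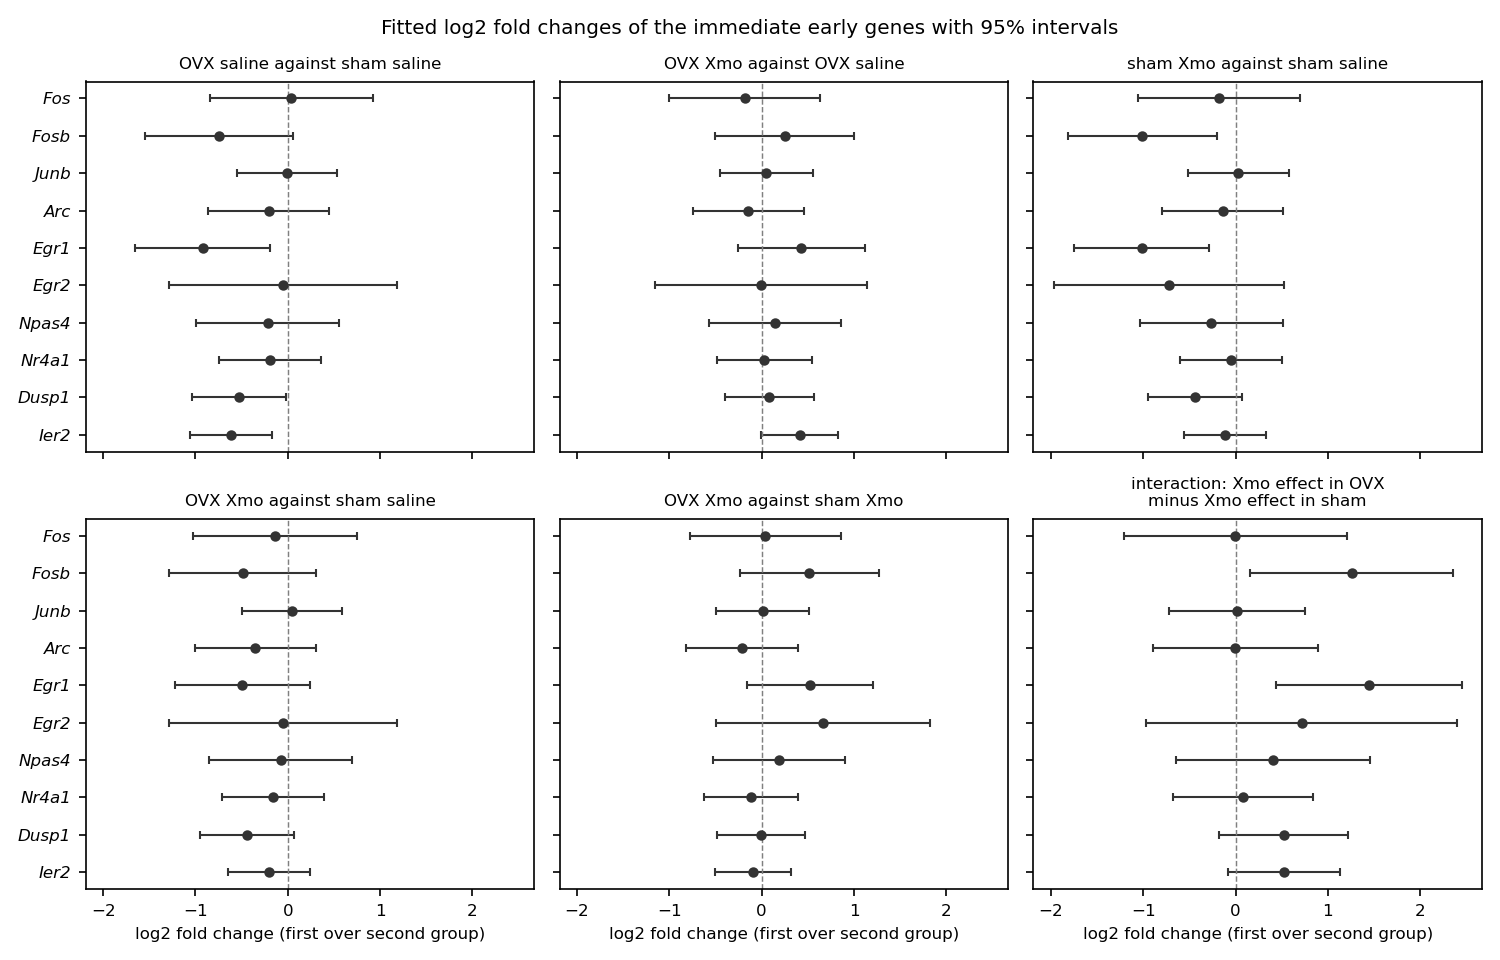
Fitted log2 fold change of each immediate early gene (horizontal axis, the group named first over the one named second) with its 95% interval, for the 5 comparisons between groups and for the interaction. Egr1 and Fosb stand farthest from 0, at 1.44 and 1.26 in the interaction and at -1.02 and -1.01 in sham Xmo against sham saline, and Egr2 has the widest interval in each panel.

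The members varied more between libraries of the same group than most genes of their level did. The within-group SD of log2 CPM was 0.815 for Egr2, 0.613 for Fos, 0.570 for Fosb, 0.540 for Npas4, 0.532 for Egr1, 0.468 for Arc, 0.393 for Nr4a1, 0.376 for Junb, 0.347 for Dusp1 and 0.257 for Ier2. The median over all genes was 0.262. Among the 1000 genes nearest in level, the SD of 9 members lay between the percentiles 87.2 (Dusp1) and 96.4 (Egr1), and that of Ier2 lay at 20.8. Within OVX saline the highest library had 4.24 times the lowest for Fos, and within OVX Xmo 2.73 times for Egr1, 2.92 times for Npas4 and 3.21 times for Fosb. These ranges exceed the difference between any pair of group means for the same gene.

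The libraries at the ends of these ranges were largely the same for all members. OVX saline 4 was the highest of its group for 10 of 10 members, beside 25.3% of all genes, and OVX saline 1 was the lowest for 9 of 10, beside 26.1%. OVX Xmo 2 was the lowest of its group for 8 of 10 (beside 23.5% of all genes) and OVX Xmo 3 the highest for 6 (21.7%). In the sham saline group, sham saline 3 was the highest for 8 of 10 members (31.3% of all genes) and sham saline 2 the lowest for 8 (37.6%). Sham Xmo 4 was the highest of its group for 7 members (28.9% of all genes), and sham Xmo 1 and sham Xmo 2 were the lowest for 5 and 4. Each of the 4 groups thus held libraries at both ends.

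**Figure D3:**
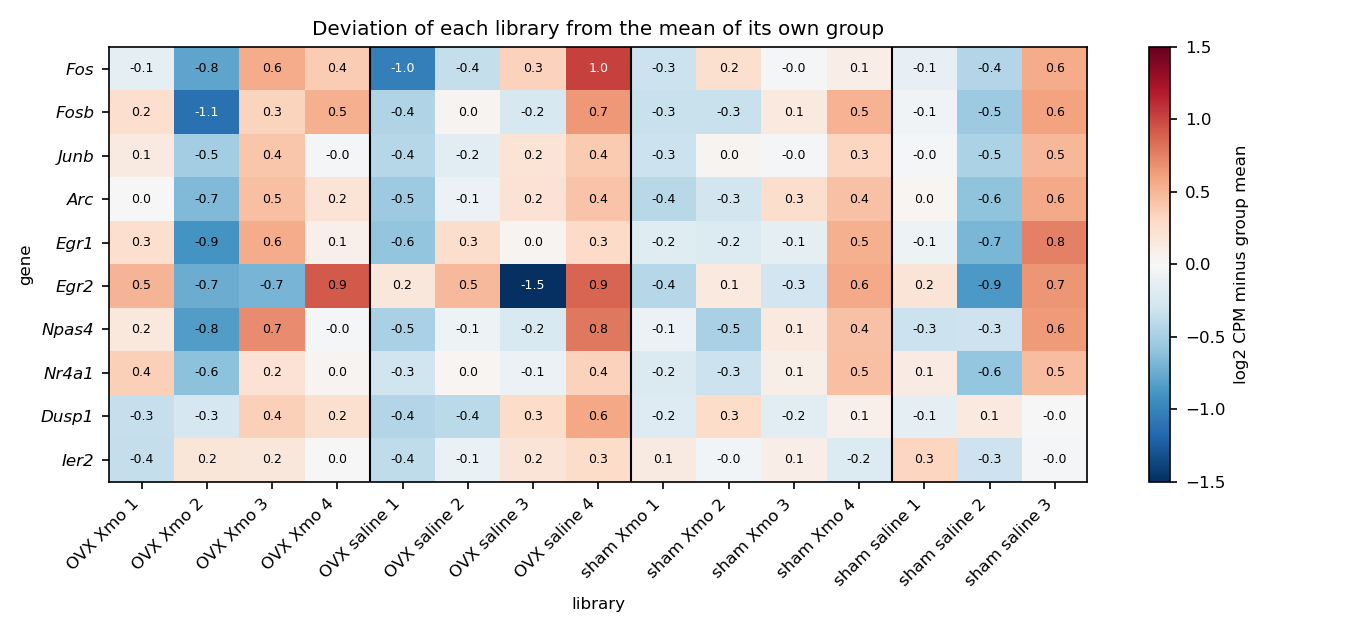
Difference of each library's log2 CPM from the mean of its own group (colour and printed value) for the 10 immediate early genes (rows) in the 15 libraries (columns). OVX Xmo 2, OVX saline 1 and sham saline 2 are low and OVX saline 4 and sham saline 3 are high for most genes, while Ier2 varies little.

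Whether libraries high in a given member were high in the others was measured on these deviations over 15 libraries, with group means removed and libraries permuted within groups. Of the 45 pairs of members, 23 had a Pearson correlation past a permutation p of 0.05 adjusted over the 45, and 24 had a Spearman correlation past it. Junb and Arc moved most closely together, with r = 0.93 (permutation p = 0.00018, adjusted 0.00243) and rho = 0.90 (permutation p = 0.00078, adjusted 0.00344). Leaving out the 2 libraries farthest from the median gave r = 0.90. Fosb and Nr4a1 had r = 0.92 (permutation p = 0.00027, adjusted 0.00243) and rho = 0.89 (permutation p = 0.00046, adjusted 0.00337), and r = 0.90 without the 2 farthest libraries. Egr1 and Nr4a1 had r = 0.92 (permutation p = 0.00026, adjusted 0.00243) and rho = 0.89 (permutation p = 0.00016, adjusted 0.00337), and r = 0.85 without the 2 farthest. The median r over the 45 pairs was 0.65, whereas the median over all pairs of genes tested was 0 and 2.63% of all pairs reached 0.65.

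The pairs were not all alike. Fos, Fosb, Junb, Arc, Egr1, Npas4 and Nr4a1, grouped here after their values were seen, had all 21 of their pairs past the threshold, with r between 0.65 (Fos and Nr4a1) and 0.93. The lowest of these without the 2 farthest libraries was 0.61. Dusp1, the phosphatase, followed Fos (r = 0.82, permutation p = 0.00923, adjusted 0.0198, rho = 0.79, r = 0.68 without the 2 farthest libraries) and no other member past the Pearson threshold. Egr2 followed Fosb (r = 0.65, permutation p = 0.0226, adjusted 0.0443, rho = 0.76, r = 0.57 without the 2 farthest), and it followed Nr4a1 by rank alone (rho = 0.65, permutation p = 0.0225, adjusted 0.0433). Ier2 passed with none of the other 9, its r lying between -0.22 (Egr2) and 0.45 (Fos). Ier2 (57 to 128) and Egr2 (6 to 38) had the fewest counts of the 10 genes, but Fos (73 to 227) and Fosb (79 to 262) passed in 7 pairs each. The part of count level in these pairs was not tested. The 6 promoters printed above belong to 5 of the 7 closely linked genes and to Dusp1.

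**Figure D4:**
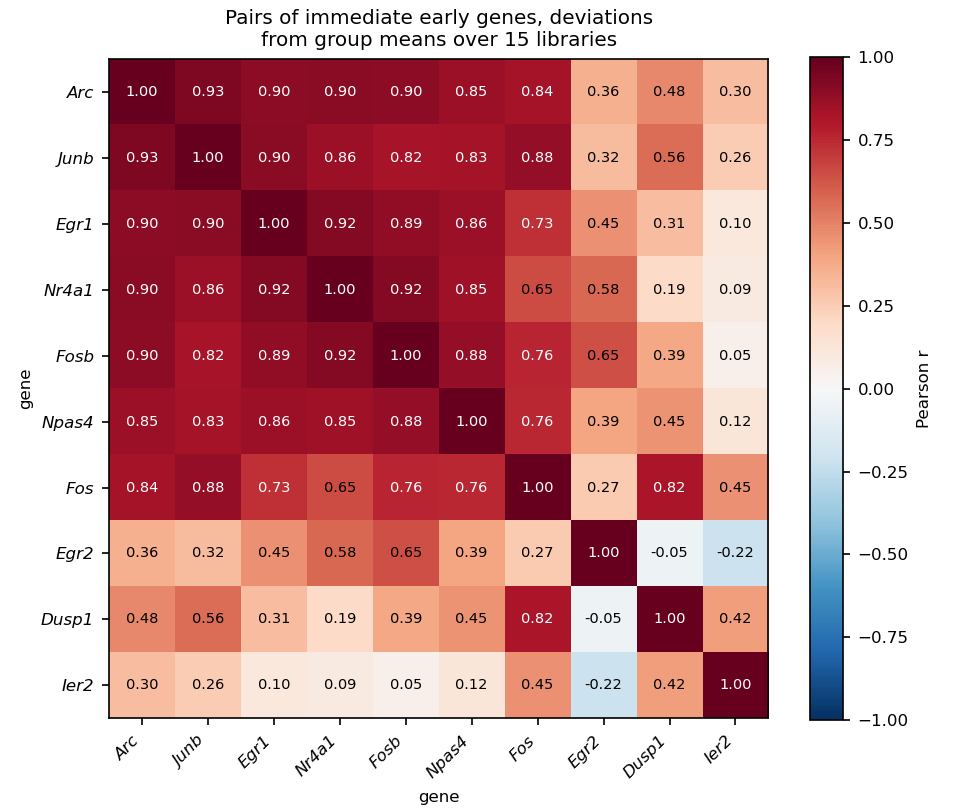
Pearson correlation (colour and printed value) between each pair of immediate early genes, on deviations of log2 CPM from group means over 15 libraries. The 7 genes from Arc to Fos form a block between 0.65 and 0.93, and Ier2 stays at or below 0.45.

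Other measures of the libraries moved with this shared pattern. The oligodendrocyte markers summed to 4595 CPM in OVX Xmo 2, the highest of its group, to 3617 CPM in OVX saline 4, the lowest of its group, and to 4591 and 3141 CPM in sham saline 2 and 3, the highest and the lowest of theirs. They summed to 3693 CPM in sham Xmo 4, the lowest of its group, and to 5563 CPM in sham Xmo 1, the highest, but to 3686 CPM in OVX saline 1, the next lowest of its group, where the members were low. Over the 15 libraries 9581 of all 19969 genes tested had a positive correlation with the members' mean pattern within groups. Of the oligodendrocyte markers 0 of 6 did (median r -0.51). Of the CA1 and CA3 pyramidal markers 6 of 10 did (median 0.31), with a range of -0.36 (Iyd) to 0.75 (Fibcd1). For 10 dentate granule cell markers the median was -0.23, for 10 astrocyte markers -0.26, for 8 pan-neuronal markers 0.25, for 10 neocortical layer markers 0.34 and for 10 choroid plexus markers 0.36. The neocortical sum was the highest of its group in sham saline 3 (376 CPM), sham Xmo 4 (354 CPM) and OVX Xmo 3 (335 CPM). It was the lowest of its group in OVX Xmo 2 (205 CPM) and sham saline 2 (204 CPM), but also in OVX saline 4 (174 CPM), high in the members. The pan-neuronal sum was the highest of the 15 libraries in sham saline 3 (8232 CPM) and the lowest in sham Xmo 4 (5038 CPM). The medians of thalamus and habenula (-0.29), endothelial (-0.22), microglia (-0.12), heat shock (-0.07) and glucocorticoid target (-0.11) lists lay nearer 0 than that of the oligodendrocyte list. Of the thalamus and habenula markers 1 of 10 had a positive correlation. Their sum was the highest of its group in OVX Xmo 2 (874 CPM) and sham saline 2 (655 CPM), both low in the members. It was the lowest of its group in sham saline 3 (171 CPM) and sham Xmo 4 (156 CPM), both high in them. The OVX saline group went the other way. Its library 1, low in the members, had 125 CPM, and its library 4, high in them, had 366 CPM. The blood and neutrophil list had a median of 0.19 and, split after its values were seen, held genes of both signs. Its 5 red cell genes lay between 0.53 (Hba-a1) and 0.59 (Alas2), all within the top 10% of all genes, and its 5 neutrophil genes between -0.50 (Lcn2) and -0.14 (Ngp). The summed level of this list was 4927 CPM in sham Xmo 4 and 2469 CPM in sham saline 3, both high in the members, and 505 to 1857 CPM in the other libraries. Over all genes the median was -0.02, with 10% of genes above 0.45 and 10% below -0.44. The mitochondrial share also moved with the pattern in 2 of the 4 groups. It was 16.5%, 14.8%, 13.5% and 11.9% in OVX saline 1 to 4 and 19.2%, 16.0%, 15.4% and 14.3% in sham Xmo 1 to 4, lower in each library that was higher in the members' mean pattern. In sham saline it was 34.1% in sham saline 2, the lowest in the pattern, 19.0% in sham saline 1 and 24.2% in sham saline 3, the highest in it. In OVX Xmo it was 13.4% in OVX Xmo 2, the lowest in the pattern, and 13.8% in OVX Xmo 3, the highest in it. Depth differed in both directions. OVX saline 4, high in the members, had 22592132 counts, whereas OVX saline 1, low in them, had 39140593 counts. OVX Xmo 3, high in the members, had 20848661 counts, whereas OVX Xmo 2, low in them, had 33711420 counts. Sham Xmo 4, high in the members, had 37629510 counts, whereas sham Xmo 1, low in them, had 30278757 counts. Sham saline 3, high in the members, had 29070968 counts, and sham saline 2, low in them, had 28682463 counts. The part of tissue composition, blood, depth or mitochondrial share in the shared pattern was not tested.

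Other genes of the same response were read from 4 lists. Of 20 further immediate early transcription factors, 17 correlated positively with the members' mean pattern within groups (median r 0.41) and 8 were among the top 10% of all genes. Beside this count and those below, 9581 of all 19969 genes tested correlated positively. The closest were Egr4 (0.85), Klf10 (0.75) and Egr3 (0.71), while Crem (-0.15), Atf3 (-0.15) and Maff (-0.26) were below 0. Atf3 and Maff were low in level, at a mean of 0.498 and 0.745 CPM. Of 30 signalling and feedback genes, 23 were positive (median 0.35) and 14 were among the top 10%. These were led by Dusp5 (0.84), an ERK phosphatase, Midn (0.82) and Gpr3 (0.71), a receptor coupled to cAMP. The 22 synaptic and secreted effectors had a median of 0.05, with 12 positive, 5 among the top 10% and 2 among the lowest 10%. They ran between Cort (0.63) and Scg2 (-0.47), and include Bdnf (-0.32) and Homer1 (0.02). The 30 kinases, receptors and transcription factors that act upstream had a median of 0.15, with 20 positive, 4 among the top 10% and 2 among the lowest 10%. Mef2d (0.75) and Srf (0.65) were the highest of these, and Mef2a (-0.65) and Cacna1c (-0.58) the lowest. These correlations are over the same 15 libraries and describe them, with no test.

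**Figure D5:**
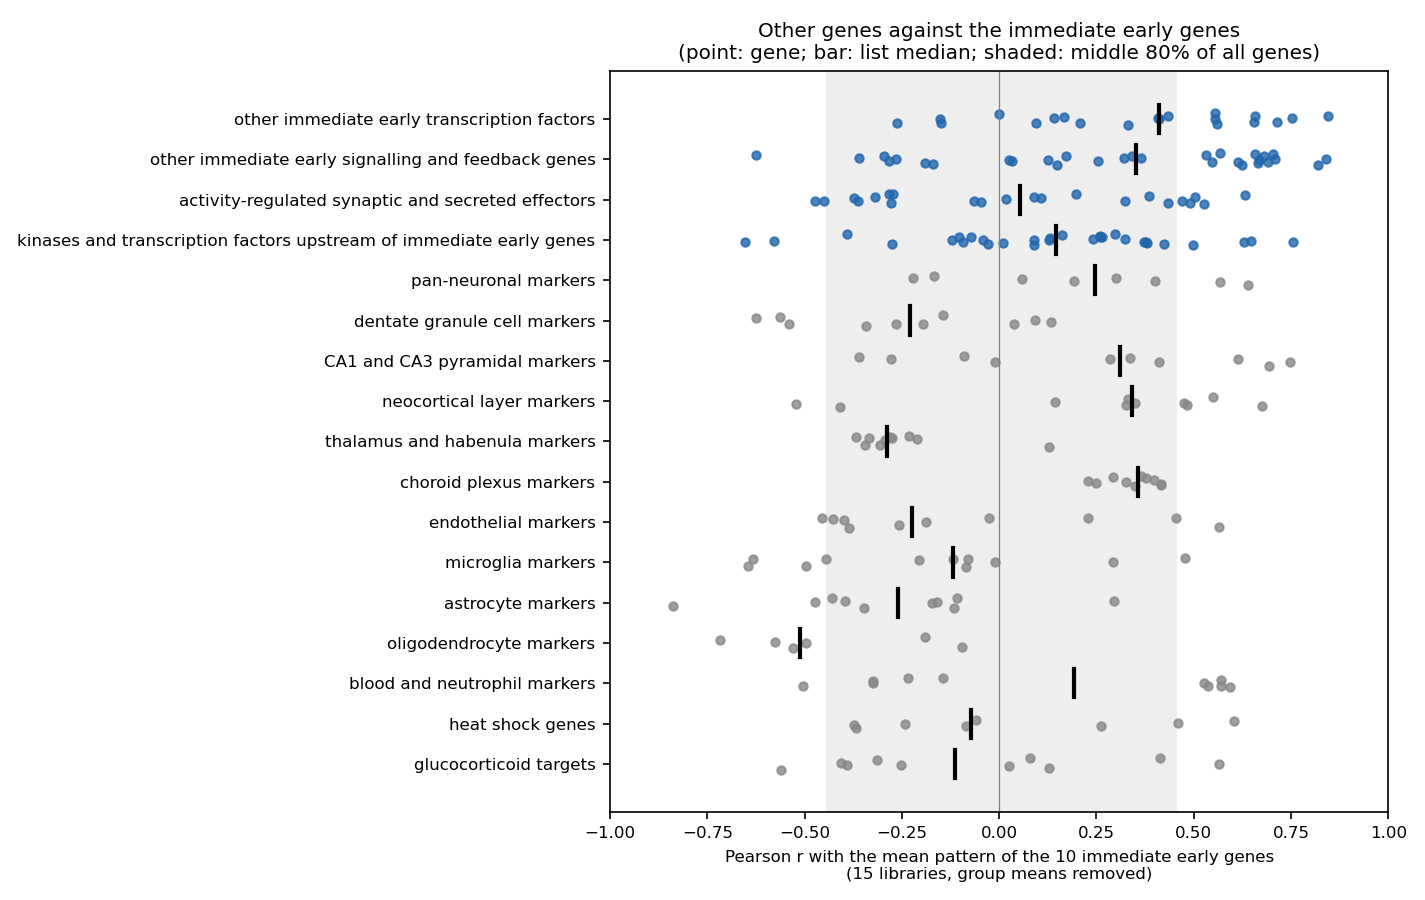
Pearson correlation over 15 libraries, group means removed, between each gene of a list (point) and the mean pattern of the 10 immediate early genes, with a bar at the list median and the middle 80% of all genes shaded. The 2 lists of further immediate early genes have medians of 0.41 and 0.35, and all 6 oligodendrocyte markers lie below 0.

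Between groups the genes of these 4 lists passed about as often as all genes did in OVX saline against sham saline, where 7 of 102 passed by edgeR, beside 6.24% of all genes. Klf6, a zinc finger factor, fell to 26.8 ± 1.20 CPM in OVX saline, against 36.8 ± 1.62 CPM in sham saline (log2 fold change -0.46, SE 0.12, edgeR adjusted p = 0.0365), and Ier3, a stress-induced survival gene, fell to 1.68 ± 0.284 CPM in OVX saline, against 4.28 ± 2.19 CPM in sham saline (-1.34, SE 0.35, edgeR adjusted p = 0.0365). The call for Klf6 was lost whichever of the 7 libraries was left out (edgeR adjusted p 0.0644 to 0.117), and that for Ier3 without 6 of the 7. Of the genes that act upstream, Map2k2, the kinase MEK2, rose (0.55, SE 0.10, edgeR adjusted p = 0.0152). Grin2b, an NMDA receptor subunit (-0.47, edgeR adjusted p = 0.0291), Prkaca, a PKA catalytic subunit (-0.47, edgeR adjusted p = 0.0280), and Camk4, a kinase of CREB (-0.52, edgeR adjusted p = 0.0236), fell. Leaving out a library ended the Map2k2 call in 2 of 7 cases (sham saline 2 and 3), that of Grin2b in 6, and those of Prkaca and Camk4 in 5 each. Grin2b and Camk4 overlap small annotated genes, so their counts are less certain. Amigo3, an adhesion protein of the effector list, rose (0.80, edgeR adjusted p = 0.0390), but it overlaps Rnf123 and its call was lost without 6 of the 7 libraries. DESeq2 called 14 of the 102, beside 13.2% of all genes.

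In sham Xmo against sham saline Prkaca was the single gene of the 102 past edgeR's test, beside 1.51% of all genes. It fell to 78.1 ± 4.08 CPM in sham Xmo, against 117 ± 22.0 CPM in sham saline (-0.59, SE 0.11, edgeR adjusted p = 0.0249), and the call was lost without sham saline 3, sham Xmo 3 or sham Xmo 4. DESeq2 called 10, beside 6.9% of all genes. In OVX Xmo against sham saline Map2k2 alone rose (0.51, SE 0.10, edgeR adjusted p = 0.0335), a call lost without 5 of 7 libraries, beside 1.19% of all genes by edgeR. DESeq2 called 2 of the 102 there, beside 7.9% of all genes. In the interaction Prkaca alone passed (0.79, SE 0.15, edgeR adjusted p = 0.0410), a call lost without 11 of the 15 libraries in turn, beside 0.416% of all genes by edgeR. DESeq2 called 7 there, beside 5.57% of all genes. OVX Xmo against OVX saline and OVX Xmo against sham Xmo gave 0 of 102 by edgeR and by DESeq2. At an unadjusted p under 0.05 they gave 4 and 9 of 102, beside 4.18% and 10.2% of all genes.

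Among all other genes, the pattern most like that of the members was sought by the Pearson correlation over 15 libraries, groups not removed, with the mean of the members' standardised log2 CPM. The 10 highest were 9430021M05Rik (0.88), Sik3 (0.84), Tmem132d (0.83), Slc7a1 (0.80), Sh3rf1 (0.79), Etl4 (0.79), Sept9 (0.78), Fam205a4 (0.78), Paf1 (0.78) and Gm45606 (0.78). With group means removed Sik3, a salt-inducible kinase, had 0.91 and Slc7a1, a transporter of cationic amino acids, 0.89. Sik3 ran between 80.3 and 134 CPM and Slc7a1 between 24 and 39.7 CPM, so both varied over a narrower range than each of the 7 closely linked members. Tmem132d, Sh3rf1, Etl4, Sept9 and Gm45606 overlap other genes, and Fam205a4 has near-identical copies, so their counts are uncertain. The 3 lowest were S100b (-0.86), a calcium-binding protein that is also on the astrocyte list and that ran between 81.3 and 117 CPM, BC048644 (-0.81) and Kcne4 (-0.81), an accessory potassium channel subunit. Each of these 3 overlaps another gene. Of all genes that are no member, 0.331% had a correlation above 0.7.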

How the data were processed

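Per the labels' protocols, Trizol was used to extract RNA and TruSeq RNA chemistry to build libraries. The submitters' processing notes name, with no role, StringTie 1.3.3b, Bowtie2 2.3.2, Trimmomatic 0.36, FastQC 0.11.2 and the build GRCm38.p6. No source used here gives the strand setting of the counting. The table that the authors deposited holds raw counts per gene and, separately, TPM values. TPM was used to compare genes, since it divides by length, and counts were used for all tests. A further 12 columns matched no sample and were left out. The miRNA libraries were not used here. Counts were fitted in edgeR 4.0.16 (R 4.3.3) with filterByExpr, TMM scaling and the quasi-likelihood test over all 15 libraries in 4 groups (11 residual degrees of freedom), with Benjamini-Hochberg adjustment over 19969 genes and a threshold of 0.05. Log2 CPM used a prior count of 2. Correlations between members used 100000 permutations within groups, which can give no p below 1e-05. The alternatives were DESeq2 1.42.0, RLE scaling, fits without mitochondrial genes, without the filter, of the compared groups only, with a replicate block, and without each library in turn. The tests were also run on simulated data. The simulated counts gave all genes a single spread, so they do not show the power for these members. Chi-square values per degree of freedom ran between 21.0 and 155 over the 21 pairs of replicates within groups, so none of these pairs was a single library sequenced again. Pairs across groups were not compared, and the values do not show whether libraries shared an animal. All members were named in every comparison, with at most 4 genes past the test from each further list, and the 10 highest and 3 lowest genes by likeness. The members and lists were chosen with earlier results of these data known.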

Additional observations from a re-analysis of the deposited data

Results flagged for a closer look

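A single library stood apart within its group. Egr1 in the highest sham Xmo library was at 79.8 CPM, while the other 3 libraries of that group lay between 47.6 and 49.7 CPM, so that the gap took 0.935 of the group's range, above Dixon's critical value at the 95% level for 4 libraries. Of 30 groups tested this was the 1 flag, where chance gives about 1 in 20. The library, sham Xmo 4, was also the highest of its group for 7 of the 10 members and had 10856 CPM of choroid plexus marker transcripts, the most of all 15. The part of these transcripts in the Egr1 value was not tested.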

How the results depend on the processing

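The number of members past the test was 0 in all 6 comparisons under edgeR, whatever the scaling, filter, samples fitted or library left out. DESeq2 gave 1 (Egr1) in OVX saline against sham saline, in sham Xmo against sham saline and in the interaction. Of 870 alternative values of the members, 762 kept direction and side of the threshold, 3 passed it and 105 changed sign, 93 of these by leaving out a library. Each member value that changed sign had a reported size of at most 0.26 on the log2 scale.

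The replicate numbers do not pair the libraries: same-number correlations lay between -0.21 and 0.19 over 17 pairs (2 above 0.1), and those of other numbers between -0.19 and 0.26. With the replicate block the members past the test stayed at 0. In OVX saline against sham saline the block gave Fos -0.22, and the fit without a filter gave Junb 0.0062. The block gave Junb -0.0038 in OVX Xmo against sham saline, and Fos -0.048 and Junb -0.0052 in OVX Xmo against sham Xmo. For the interaction Fos was 0.015 with DESeq2, 0.015 with RLE scaling, 0.00035 without mitochondrial genes and 0.17 with the block, and Arc was 0.014 with DESeq2, 0.014 with RLE scaling and 0.073 with the block. The cause was not tested.

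Leaving out a library gave log2 fold changes in OVX saline against sham saline of -0.42 to 0.38 for Fos, -0.22 to 0.29 for Junb, -0.46 to 0.12 for Arc, -0.38 to 0.34 for Egr2, -0.58 to 0.18 for Npas4 and -0.44 to 0.057 for Nr4a1. In OVX Xmo against OVX saline they were -0.44 to 0.25 for Fos, -0.10 to 0.19 for Junb, -0.30 to 0.028 for Arc, -0.38 to 0.29 for Egr2, -0.13 to 0.48 for Npas4, -0.094 to 0.19 for Nr4a1 and -0.056 to 0.30 for Dusp1. In sham Xmo against sham saline they were -0.38 to 0.16 for Fos, -0.18 to 0.32 for Junb, -0.40 to 0.19 for Arc, -0.44 to 0.14 for Npas4, -0.29 to 0.20 for Nr4a1 and -0.26 to 0.069 for Ier2. In OVX Xmo against sham saline they were -0.35 to 0.20 for Fos, -0.17 to 0.33 for Junb, -0.43 to 0.33 for Egr2, -0.37 to 0.32 for Npas4 and -0.40 to 0.086 for Nr4a1. In OVX Xmo against sham Xmo they were -0.16 to 0.24 for Fos, -0.14 to 0.15 for Junb, -0.089 to 0.39 for Npas4, -0.24 to 0.049 for Nr4a1, -0.14 to 0.10 for Dusp1 and -0.17 to 0.016 for Ier2. For the interaction they were -0.34 to 0.45 for Fos, -0.27 to 0.23 for Junb, -0.33 to 0.25 for Arc and -0.17 to 0.32 for Nr4a1.

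Of the 45 pairs, 23 passed with RLE scaling and 23 with group means kept, and 18 to 24 passed without a library, the fewest without OVX Xmo 2. With log2(TPM + 0.1) and Junb left out, 21 of 36 pairs passed, against 17 of the same 36 in log2 CPM. These alternatives for pairs were chosen after seeing the data.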
